A study of Mus musculus with 88 samples.

Results

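The genes described here are 27 genes of GABA synthesis, transport and reception in the mouse brain, out of 53749 gene IDs in the deposited count tables. They were chosen by symbol, each matched to its Ensembl ID in GENCODE vM21, and all 27 had a row in each of the 3 tables. By role they comprised 15 GABA-A receptor subunits (Gabra2, Gabra3, Gabra4, Gabra5, Gabra6, Gabrb1, Gabrb2, Gabrg1, Gabrg3, Gabrd, Gabre, Gabrq, Gabrp, Gabrr1 and Gabrr2), 2 GABA-B receptor subunits (Gabbr1 and Gabbr2), 3 enzymes (Gad1, Gad2 and Abat), 3 GABA transporters (Slc32a1, Slc6a11 and Slc6a13), 2 chloride transporters (Slc12a5 and Slc12a2), and gephyrin (Gphn) and neuroligin 2 (Nlgn2) of the inhibitory synapse. GABA is the main inhibitory transmitter of the adult brain. It is made from glutamate by Gad1 and Gad2, loaded into vesicles by Slc32a1, taken up from the extracellular space by transporters such as Slc6a11, and broken down by Abat. It opens GABA-A receptors, which are chloride channels, and activates GABA-B receptors, which act through G proteins, while the chloride exporter Slc12a5 and the importer Slc12a2 set the gradient on which the channels depend.

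Nuclear total RNA was sequenced from sorted nuclei of 4-month-old male C57BL/6J mice, wild type in every group. Animals were taken 10 or 30 minutes after placement in the context of contextual fear conditioning (CFC10 and CFC30), a task pairing a place with foot shocks, or were naive animals left in the home cage. From these, NeuN+ (neuronal) and NeuN- (non-neuronal) nuclei were sorted from the hippocampus (HIP; n = 4 per group, except that 2 naive NeuN- libraries were identical over all 53749 genes and were counted as 1, giving n = 3) and from the medial prefrontal cortex (mPFC; n = 3 per group). A second set of mice received corticosterone (2 mg/kg, intraperitoneal) or saline, and after 30 minutes hippocampal nuclei were sorted as NeuN+ (neurons), GFAP+ (astrocytes), PU.1+ (microglia) and 3X-, which is negative for NeuN, GFAP and PU.1 and is enriched for oligodendrocytes (n = 4 per group). Total counts per library were 10561897 to 18271372 in HIP, 10577263 to 16392677 in mPFC and 5935395 to 12758257 in the corticosterone set, over 73 libraries. The mPFC and HIP libraries were made with different versions of the library kit, so region and kit cannot be told apart. ChIP-Seq of γH2AX, a chromatin mark of DNA double-strand breaks, came from 14 further samples of whole tissue, each pooled from 3 animals, and replicates were merged before peaks were listed.

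The markers that define each sorted cell type were highest in its own sort. Summed over the list, microglial markers took 7573 to 8610 CPM (counts scaled to the library total) in PU.1+ libraries and astrocyte markers 11980 to 15140 CPM in GFAP+ saline libraries. Oligodendrocyte markers took 10080 to 12030 CPM in 3X- libraries, and neuronal markers took 597 to 837 CPM in mPFC NeuN- naive libraries against 6748 to 6961 CPM in mPFC NeuN+ naive libraries. The sorts were not free of other cells. Neuronal markers still took 1696 to 2105 CPM in GFAP+ saline libraries and 841 to 1274 CPM in PU.1+ saline libraries, against 5643 to 5777 CPM in NeuN+ saline libraries, and the part of such RNA in the levels below was not tested. In bulk nuclei, fewer cells of a type and less RNA per cell cannot be told apart.

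Promoter sequence was available for 24 of the 27 genes (RefSeq, GRCm38.p6, 250 bases before to 50 bases after the start), and 7 windows are printed for the genes on which the results below turn. The genes that rose in mPFC neurons come first (Gabbr1, Gabbr2, Gad1 and Nlgn2), followed by Gabra3, which fell there, and by the head-to-head neighbours Gabra4 and Gabrb1, of which the first fell in mPFC neurons and the second rose in mPFC NeuN- nuclei. Capitals mark a match to 1 of the motifs searched on both strands.
Gabbr1, chr17:37045716-37046015, plus strand: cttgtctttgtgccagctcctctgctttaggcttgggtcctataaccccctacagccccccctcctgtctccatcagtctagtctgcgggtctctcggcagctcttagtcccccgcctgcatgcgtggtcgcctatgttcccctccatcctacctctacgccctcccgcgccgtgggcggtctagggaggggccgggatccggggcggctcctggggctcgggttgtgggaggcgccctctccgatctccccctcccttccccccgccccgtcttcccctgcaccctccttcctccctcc
Gabbr2, chr4:46991665-46991964, minus strand: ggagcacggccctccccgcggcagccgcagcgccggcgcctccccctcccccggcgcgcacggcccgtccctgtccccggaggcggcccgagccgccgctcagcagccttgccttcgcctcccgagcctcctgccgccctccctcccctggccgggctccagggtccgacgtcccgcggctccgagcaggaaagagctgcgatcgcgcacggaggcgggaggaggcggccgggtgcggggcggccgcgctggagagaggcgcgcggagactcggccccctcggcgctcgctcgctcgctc
Gad1, chr2:70561879-70562178, plus strand: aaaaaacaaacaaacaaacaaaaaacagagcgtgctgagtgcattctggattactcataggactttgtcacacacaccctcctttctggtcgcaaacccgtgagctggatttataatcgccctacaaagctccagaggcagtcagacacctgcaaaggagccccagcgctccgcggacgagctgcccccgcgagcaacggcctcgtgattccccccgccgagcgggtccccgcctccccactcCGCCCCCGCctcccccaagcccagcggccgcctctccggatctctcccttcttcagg
Nlgn2, chr11:69837735-69838034, minus strand: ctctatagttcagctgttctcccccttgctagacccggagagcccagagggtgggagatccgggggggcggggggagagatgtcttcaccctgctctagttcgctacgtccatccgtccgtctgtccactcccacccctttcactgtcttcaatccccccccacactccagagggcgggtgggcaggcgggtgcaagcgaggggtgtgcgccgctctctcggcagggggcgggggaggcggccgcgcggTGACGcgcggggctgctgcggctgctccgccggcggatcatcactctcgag
Gabra3, chrX:72656758-72657057, minus strand: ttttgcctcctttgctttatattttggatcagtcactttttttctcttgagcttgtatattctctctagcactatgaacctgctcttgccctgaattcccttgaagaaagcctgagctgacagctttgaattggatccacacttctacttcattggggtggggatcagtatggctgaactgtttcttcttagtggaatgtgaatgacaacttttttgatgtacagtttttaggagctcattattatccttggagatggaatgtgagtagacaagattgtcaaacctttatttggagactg
Gabra4, chr5:71658259-71658558, minus strand: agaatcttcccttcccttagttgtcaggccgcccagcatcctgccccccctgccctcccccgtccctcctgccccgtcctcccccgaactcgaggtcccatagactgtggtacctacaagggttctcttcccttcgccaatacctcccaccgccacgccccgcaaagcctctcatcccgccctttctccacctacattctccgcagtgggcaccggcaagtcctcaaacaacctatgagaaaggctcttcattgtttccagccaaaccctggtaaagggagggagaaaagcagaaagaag
Gabrb1, chr5:71657671-71657970, plus strand: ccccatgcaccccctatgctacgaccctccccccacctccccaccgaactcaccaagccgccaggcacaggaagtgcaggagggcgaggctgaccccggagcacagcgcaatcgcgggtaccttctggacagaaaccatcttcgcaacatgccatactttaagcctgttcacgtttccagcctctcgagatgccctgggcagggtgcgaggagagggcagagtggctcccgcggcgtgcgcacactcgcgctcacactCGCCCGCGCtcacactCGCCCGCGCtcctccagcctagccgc

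The windows differed widely in base composition. The Gabbr2 window was 80.3% G or C with 46 CpG dinucleotides, and the Gabra3 window was 39.3% G or C with 0 CpG. Over the 24 windows the median was 61.15% (38.3 to 80.3%) with a median of 15.5 CpG, against 52.7% and 7 CpG over all 32851 windows. The motif of the immediate early factor EGR1, GCGNGGGCG, was found in 4 of 24 windows (Gabrb1, Gabrb2, Gad1 and Gphn) and in 5.55% of all windows. Gabrb1 held 2 matches, at bases 259 to 267 and 275 to 283 of its window, and Gad1 held 1 at bases 244 to 252. The cAMP response element TGACGTCA was in 0 of 24 windows and in 1.79% of all windows. Its half-site TGACG, which lies within the full element, was in 4 of 24 (Gabrb2, Gabrr1, Gad2 and Nlgn2) and in 20.8% of all. The AP-1 motif TGANTCA was in 1 of 24 (Slc12a5) and in 7.81% of all, and the palindromic glucocorticoid response element was in 0 of 24 and in 0.00913% of all. Slc12a2 is not among the 24, so its promoter was not searched for any of these motifs. The Gad1 window lies 9057 bp from the 5′ end of the GENCODE gene model, so it covers 1 of that gene's start sites.

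Many of the receptor genes are neighbours in the genome. On chromosome 5, Gabrg1, Gabra2, Gabra4 and Gabrb1 follow each other, with gaps of 114979 bp between Gabrg1 and Gabra2 and 473899 bp between Gabra2 and Gabra4, and the 5′ ends of Gabra4 (minus strand) and Gabrb1 (plus strand) overlap by 196 bp. Gabrg3 and Gabra5 lie 20483 bp apart on chromosome 7, Gabra6 and Gabrb2 98684 bp apart on chromosome 11, Gabrr2 and Gabrr1 36655 bp apart on chromosome 4, and Gabre, Gabra3 and Gabrq lie in a row on chromosome X. Counts were taken over whole gene bodies (GRCm38), such as chr17:37045966-37075067 for Gabbr1, chr4:46662305-46991873 for Gabbr2, chr2:70553072-70602014 for Gad1, chrX:72432681-72656848 for Gabra3 and chr6:114131241-114249952 for Slc6a11. The strand setting of the counting was not stated, so reads from genes that overlap on opposite strands could not be separated. Such genes covered 90.5% of the Gabra5 body, 21.0% of Gad1 and 18.3% of Slc32a1, and the values of these 3 genes are uncertain to that extent. No other member was overlapped over more than 4.26% of its body.

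Levels were compared between genes as FPKM over the gene body, since nuclear RNA holds introns. Of the 27 genes, 20 exceeded a mean of 0.2 FPKM in at least 1 of the 4 saline populations of the hippocampus. NeuN+ nuclei held the highest mean for 11 of these 20, GFAP+ nuclei for 6 and 3X- nuclei for 3, and PU.1+ nuclei for 0. In 18 of the 20 the libraries of the highest population did not overlap those of the next, the exceptions being Slc32a1 (NeuN+, then GFAP+) and Nlgn2 (3X-, then NeuN+). These counts were not made over all genes, so they show no trait particular to this set. Against NeuN+ saline nuclei, groups did not overlap in CPM for 62.4% of all genes tested in GFAP+, 72.3% in PU.1+ and 63.3% in 3X- nuclei.

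Among the GABA-A receptor alpha subunits, which form part of the GABA binding site, Gabra2 was the most abundant in hippocampal neurons. Gabra2 stood at 2.65 ± 0.14 FPKM in GFAP+, 0.565 ± 0.084 in PU.1+, 0.376 ± 0.057 in 3X- and 3.19 ± 0.18 in NeuN+ nuclei (SD, n = 4 each, as for all saline values below). In naive animals it stood at 1.34 ± 0.036 FPKM in HIP NeuN- (n = 3) and 3.74 ± 0.22 in HIP NeuN+ nuclei (n = 4), and at 0.959 ± 0.019 FPKM in mPFC NeuN- and 1.57 ± 0.10 in mPFC NeuN+ nuclei (n = 3 each). Gabra4 had the same order, with 1.52 ± 0.15 FPKM in GFAP+, 0.37 ± 0.081 in PU.1+, 0.22 ± 0.04 in 3X- and 2.11 ± 0.15 in NeuN+ nuclei. Gabra5, known for extrasynaptic receptors of hippocampal pyramidal neurons, stood at 0.404 ± 0.07 FPKM in GFAP+, 0.307 ± 0.051 in PU.1+, 0.12 ± 0.032 in 3X- and 1.68 ± 0.078 in NeuN+ nuclei. Gabra3 was low in the hippocampus, with 0.0502 to 0.145 FPKM over the 4 saline means, and was highest in mPFC NeuN+ nuclei at 0.488 ± 0.018 FPKM, against 0.187 ± 0.0075 FPKM in HIP NeuN+ nuclei. Gabra6, best known from cerebellar granule cells, had 0 counts in the naive NeuN+ libraries of either region, which allows up to 0.00393 FPKM in HIP and 0.00568 FPKM in mPFC (3 counts over the group), and never exceeded 4 counts in a saline or naive group.

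The beta subunits divided by cell type. Gabrb1 was the leading GABA-A subunit of astrocytes, at 5.48 ± 0.42 FPKM in GFAP+, 0.464 ± 0.072 in PU.1+, 0.398 ± 0.048 in 3X- and 2.12 ± 0.05 in NeuN+ nuclei. Gabrb2 stood at 0.376 ± 0.049 FPKM in GFAP+, 0.284 ± 0.067 in PU.1+, 0.323 ± 0.037 in 3X- and 1.59 ± 0.07 in NeuN+ nuclei. Of the gamma subunits, which take part in benzodiazepine binding and synaptic placement, Gabrg1 was highest in astrocytes, with 0.842 ± 0.11 FPKM in GFAP+, 0.0317 ± 0.01 in PU.1+, 0.149 ± 0.027 in 3X- and 0.0343 ± 0.0053 in NeuN+ nuclei. Gabrg3 instead stood at 0.376 ± 0.016 FPKM in GFAP+, 0.165 ± 0.043 in PU.1+, 0.297 ± 0.017 in 3X- and 0.973 ± 0.031 in NeuN+ nuclei, and reached 1.9 ± 0.047 FPKM in mPFC NeuN+ nuclei. Gabrd, the delta subunit of tonically active receptors, stood at 0.223 ± 0.065 FPKM in GFAP+ (106 counts), 0.169 ± 0.054 in PU.1+, 0.0848 ± 0.036 in 3X- and 0.799 ± 0.064 in NeuN+ nuclei (366 counts). The rho subunit Gabrr2, of a class first known from the retina, was highest in 3X- nuclei at 1.05 ± 0.056 FPKM (1175 counts), against 0.142 ± 0.012 in GFAP+, 0.0416 ± 0.013 in PU.1+ and 0.0136 ± 0.0065 in NeuN+ nuclei.

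A few subunits were close to the counting floor in every control population. Gabrq had 1 to 12 counts per saline or naive group, Gabrp 0 to 7 and Gabrr1 2 to 8. Gabre had 40 counts in 3X- and 33 in HIP NeuN- nuclei, against 0 in NeuN+ saline nuclei (allowing up to 0.00458 FPKM) and 3 in HIP NeuN+ nuclei. The ratio of Gabre CPM between HIP NeuN- and HIP NeuN+ naive nuclei was 15.9 (5.00 to 81.2, exact 95% interval of counting error only).

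The metabotropic subunits, which work as a pair, had unlike distributions. Gabbr1, which binds GABA, was abundant in every population, with 9.88 ± 0.57 FPKM in GFAP+, 4.33 ± 0.20 in PU.1+, 7.36 ± 0.42 in 3X- and 5.44 ± 0.23 in NeuN+ nuclei. Gabbr2, which couples to the G protein, was highest in neurons, at 0.782 ± 0.08 FPKM in GFAP+, 0.446 ± 0.089 in PU.1+, 0.432 ± 0.041 in 3X- and 2.99 ± 0.094 in NeuN+ nuclei. In naive animals Gabbr2 stood at 0.339 ± 0.044 FPKM in HIP NeuN- (n = 3) and 2.61 ± 0.075 in HIP NeuN+ nuclei (n = 4), and at 1.08 ± 0.084 FPKM in mPFC NeuN- and 3.46 ± 0.19 in mPFC NeuN+ nuclei (n = 3 each).

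Among the enzymes, Gad1 stood at 0.472 ± 0.051 FPKM in GFAP+, 0.307 ± 0.079 in PU.1+, 0.689 ± 0.067 in 3X- and 1.08 ± 0.074 in NeuN+ nuclei. Gad2 was lower throughout, with 0.165 ± 0.02 FPKM in GFAP+, 0.12 ± 0.037 in PU.1+, 0.0646 ± 0.0089 in 3X- and 0.387 ± 0.038 in NeuN+ nuclei. The breakdown enzyme Abat was highest in astrocytes, with 1.65 ± 0.15 FPKM in GFAP+, 0.169 ± 0.027 in PU.1+, 0.59 ± 0.02 in 3X- and 0.471 ± 0.05 in NeuN+ nuclei. Slc32a1 was short and thinly counted, at 0.611 ± 0.13 FPKM in GFAP+ (110 counts), 0.545 ± 0.12 in PU.1+ (85 counts), 0.274 ± 0.066 in 3X- (46 counts) and 0.891 ± 0.18 in NeuN+ nuclei (155 counts). The plasma membrane transporter Slc6a11, the astrocytic GAT3, was highest in astrocytes with 4.64 ± 0.29 FPKM in GFAP+, 0.153 ± 0.036 in PU.1+, 0.296 ± 0.056 in 3X- and 0.222 ± 0.023 in NeuN+ nuclei. Slc6a13, known from the meninges and liver, had 272 counts in mPFC NeuN- naive nuclei against 1 in mPFC NeuN+ naive nuclei, a ratio of CPM of 294 (52.2 to 11630, exact 95% interval).

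The chloride transporters mirrored each other. Slc12a5, the KCC2 exporter of mature neurons, stood at 1.51 ± 0.29 FPKM in GFAP+, 1.18 ± 0.26 in PU.1+, 0.571 ± 0.13 in 3X- and 4.9 ± 0.13 in NeuN+ nuclei. Slc12a2, the NKCC1 importer, stood at 1.3 ± 0.23 FPKM in GFAP+, 2.78 ± 0.18 in PU.1+, 10.0 ± 0.16 in 3X- and 0.586 ± 0.028 in NeuN+ nuclei, and its level of 6.26 ± 0.35 FPKM in HIP NeuN- naive nuclei (n = 3) lay between those of the sorted glia. Gphn, the scaffold that anchors GABA-A and glycine receptors, was found everywhere at 1.77 ± 0.14 FPKM in GFAP+, 0.639 ± 0.036 in PU.1+, 1.37 ± 0.055 in 3X- and 0.943 ± 0.024 in NeuN+ nuclei. Nlgn2, the adhesion molecule of inhibitory synapses, stood at 3.44 ± 0.46 FPKM in GFAP+, 1.62 ± 0.18 in PU.1+, 4.23 ± 0.33 in 3X- and 3.74 ± 0.32 in NeuN+ nuclei.

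The naive sorts of the CFC set gave the levels of both regions, as mean FPKM. Of the receptor subunits, Gabra4 stood at 0.669 in HIP NeuN- and 2.53 in HIP NeuN+ nuclei, and at 0.514 in mPFC NeuN- and 2.14 in mPFC NeuN+ nuclei. Gabra5 stood at 0.11 FPKM in HIP NeuN- and 1.76 in HIP NeuN+, and 0.0226 in mPFC NeuN- and 0.746 in mPFC NeuN+ nuclei. Gabrb1 stood at 2.98 FPKM in HIP NeuN- and 2.45 in HIP NeuN+, and 2.5 in mPFC NeuN- and 1.88 in mPFC NeuN+ nuclei, and Gabrb2 at 0.228 FPKM in HIP NeuN- and 2.07 in HIP NeuN+, and 0.189 in mPFC NeuN- and 2.13 in mPFC NeuN+ nuclei. Gabrg1 stood at 0.499 FPKM in HIP NeuN- and 0.0539 in HIP NeuN+, and 0.636 in mPFC NeuN- and 0.0438 in mPFC NeuN+ nuclei, while Gabrg3 stood at 0.269 FPKM in HIP NeuN- and 1.06 in HIP NeuN+, and 0.268 in mPFC NeuN- and 1.9 in mPFC NeuN+ nuclei. These subunits thus kept to the side on which the saline sorts had placed them, with Gabrg1 on the NeuN- side and Gabra4, Gabra5, Gabrb2 and Gabrg3 on the NeuN+ side. Gabrd stood at 0.0444 FPKM in HIP NeuN- and 0.764 in HIP NeuN+, and 0.0551 in mPFC NeuN- and 1.09 in mPFC NeuN+ nuclei, Gabrr2 at 0.553 FPKM in HIP NeuN- and 0.0065 in HIP NeuN+, and 0.432 in mPFC NeuN- and 0.00673 in mPFC NeuN+ nuclei, and Gabbr1 at 7.18 FPKM in HIP NeuN- and 4.44 in HIP NeuN+, and 9.61 in mPFC NeuN- and 5.11 in mPFC NeuN+ nuclei.

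Of the enzymes, Gad1 stood at 0.39 FPKM in HIP NeuN- and 0.895 in HIP NeuN+ nuclei, and at 0.543 in mPFC NeuN- and 0.746 in mPFC NeuN+ nuclei. Gad2 stood at 0.0609 FPKM in HIP NeuN- and 0.431 in HIP NeuN+, and 0.16 in mPFC NeuN- and 0.505 in mPFC NeuN+ nuclei, and Abat at 0.937 FPKM in HIP NeuN- and 0.428 in HIP NeuN+, and 1.27 in mPFC NeuN- and 0.492 in mPFC NeuN+ nuclei. Both synthesis enzymes were thus on the neuronal side and the breakdown enzyme on the other in both regions. Among the transporters, Slc32a1 stood at 0.153 FPKM in HIP NeuN- and 0.531 in HIP NeuN+, and 0.264 in mPFC NeuN- and 0.982 in mPFC NeuN+ nuclei, Slc6a11 at 2.04 FPKM in HIP NeuN- and 0.197 in HIP NeuN+, and 2.65 in mPFC NeuN- and 0.337 in mPFC NeuN+ nuclei, and Slc12a5 at 0.41 FPKM in HIP NeuN- and 4.01 in HIP NeuN+, and 0.315 in mPFC NeuN- and 4.42 in mPFC NeuN+ nuclei. Slc12a2 stood at 0.574 FPKM in HIP NeuN+ nuclei, and at 4.76 FPKM in mPFC NeuN- against 0.665 FPKM in mPFC NeuN+ nuclei. Gphn stood at 1.78 FPKM in HIP NeuN- and 1.122 in HIP NeuN+, and 1.78 in mPFC NeuN- and 0.949 in mPFC NeuN+ nuclei, and Nlgn2 at 2.15 FPKM in HIP NeuN- and 2.37 in HIP NeuN+, and 3.51 in mPFC NeuN- and 3.62 in mPFC NeuN+ nuclei.

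**Figure D1:**
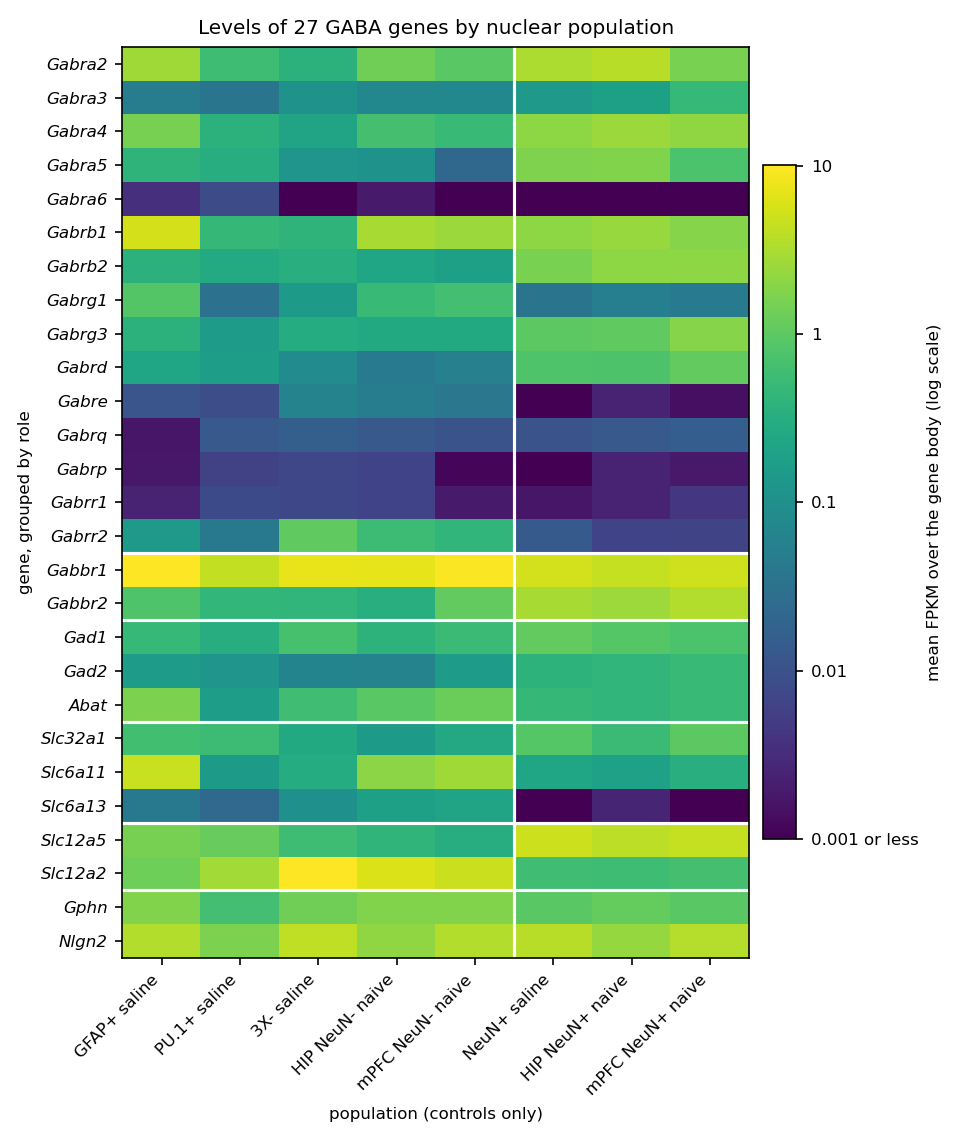
Mean level of each gene (rows, grouped by role) in the control libraries of each population (columns, non-neuronal sorts left of the white line and NeuN+ sorts right of it); colour is the mean FPKM over the gene body on a log scale, with 0.001 or less in the darkest colour. Slc12a2 is brightest in 3X- nuclei (10.0 FPKM), Gabrb1 (5.48) and Slc6a11 (4.64) are bright in GFAP+ nuclei, and Gabra6, Gabrq, Gabrp and Gabrr1 are dark in every column.

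The differences between populations were tested with edgeR's quasi-likelihood test on TMM-scaled counts. The p-values were adjusted over all genes tested by the method of Benjamini and Hochberg, and calls below are those under 0.05. The paper calls the RNA-Seq replicates of the CFC set independent but does not state how many animals each RNA-Seq library holds. Such p-values measure the spread between these samples. TMM scaling set the log2 fold changes of glial against neuronal populations 0.29 to 0.52 below the log2 ratio of mean CPM, so they are relative to the bulk of genes, and Gabrb1 (in NeuN- against NeuN+ nuclei of both regions) and Nlgn2 (in 3X- against NeuN+ nuclei) changed sign between the 2 scales. None of these 3 differences was called.

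In naive HIP, NeuN- against NeuN+ nuclei, 20 genes were tested, and 7 were higher and 12 lower, where 70.8% of all genes tested were called (37% higher and 33.8% lower). The largest positive differences were those of Gabrr2 (log2 fold change 5.79, SE 0.28), Slc12a2 (2.98, SE 0.07), Slc6a11 (2.90, SE 0.10) and Gabrg1 (2.73, SE 0.17), followed by Abat (0.66), Gabbr1 (0.23) and Gphn (0.20). The 12 lower genes were Gabrd (-4.54), Gabra5 (-4.43), Slc12a5 (-3.74), Gabrb2 (-3.64), Gabbr2 (-3.41), Gad2 (-3.27), Gabrg3 (-2.44), Gabra4 (-2.38), Slc32a1 (-2.18), Gabra2 (-1.95), Gad1 (-1.67) and Nlgn2 (-0.60). The highest adjusted p among the 19 was 0.00436 (edgeR), for Gphn, and Gabrb1 was not called (-0.18, adjusted p = 0.0548, edgeR).

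In naive mPFC, NeuN- against NeuN+ nuclei, 22 genes were tested, and 8 were higher and 13 lower, where 69.5% of all genes tested were called (35.4% higher and 34.1% lower). Slc6a13 was tested here and was called higher. The other 7 higher genes were Gabrr2 (log2 fold change 5.42), Gabrg1 (3.35), Slc6a11 (2.46), Slc12a2 (2.32), Abat (0.85), Gabbr1 (0.39) and Gphn (0.39). Among the 13 lower genes, Gabra3, also tested here, stood at -3.25 (SE 0.069), and Gabra5 had the largest negative difference at -5.58 (SE 0.15). The other GABA-A subunits were Gabrd (-4.80), Gabrb2 (-4.01), Gabrg3 (-3.34), Gabra4 (-2.57) and Gabra2 (-1.23), and the others Slc12a5 (-4.33), Slc32a1 (-2.40), Gabbr2 (-2.20), Gad2 (-2.17), Gad1 (-0.98) and Nlgn2 (-0.56). The highest adjusted p among the 21 was 8.38e-05 (edgeR), for Gabbr1, and Gabrb1 was not called (-0.11, adjusted p = 0.119, edgeR).

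Among the sorted hippocampal populations of saline animals, 20 genes were tested against NeuN+ nuclei. In GFAP+ nuclei 8 were higher and 12 lower (64.4% of all genes were called, 31.7% higher and 32.6% lower). The astrocyte sort was set apart by Gabrg1 (log2 fold change 4.25, SE 0.16), Slc6a11 (4.02, SE 0.12), Gabrr2 (3.03), Abat (1.45), Gabrb1 (1.01), Slc12a2 (0.79), Gphn (0.55) and Gabbr1 (0.50). The 12 lower genes were Gabrb2 (-2.44), Gabra5 (-2.42), Gabbr2 (-2.30), Gabrd (-2.17), Slc12a5 (-2.05), Gabrg3 (-1.74), Gad2 (-1.59), Gad1 (-1.55), Slc32a1 (-0.88), Gabra4 (-0.83), Gabra2 (-0.63) and Nlgn2 (-0.48), and the highest adjusted p was 0.000341 (edgeR), for Slc32a1. In PU.1+ nuclei only Slc12a2 (1.75, SE 0.09) and Gabrr2 (1.16, SE 0.35, on 43 against 15 counts) were higher among the 20, and 18 were lower, with 72.3% of all genes called (36.9% higher and 35.4% lower). The lower genes were Gabbr2 (-3.24), Gabrg3 (-3.06), Gabra4 (-3.004), Gabra2 (-2.99), Gabrb2 (-2.97), Gabra5 (-2.95), Gabrd (-2.73), Gabrb1 (-2.69), Slc12a5 (-2.55), Gad1 (-2.31), Gad2 (-2.18), Abat (-1.96), Nlgn2 (-1.70), Slc32a1 (-1.20), Gphn (-1.06), Slc6a11 (-1.03), Gabbr1 (-0.82) and Gabrg1 (-0.60, adjusted p = 0.0429, edgeR, the highest). In 3X- nuclei 5 were higher and 12 lower, with 65.1% of all genes called (33.9% higher and 31.2% lower). The higher genes were Gabrr2 (5.99, SE 0.18), Slc12a2 (3.80, SE 0.093), Gabrg1 (1.81), Gphn (0.25) and Gabbr1 (0.14, adjusted p = 0.04995, edgeR, the highest). The lower ones were Gabra5 (-4.09), Gabra4 (-3.55), Gabrd (-3.48), Slc12a5 (-3.39), Gabra2 (-3.38), Gabbr2 (-3.09), Gad2 (-2.87), Gabrb1 (-2.70), Gabrb2 (-2.59), Gabrg3 (-2.004), Slc32a1 (-1.999) and Gad1 (-0.95), while Abat (0.04), Slc6a11 (0.11) and Nlgn2 (-0.12) were not called. Of these calls, the Gabbr1 difference in 3X- nuclei was lost when 1 of 6 of the libraries was left out (adjusted p up to 0.164, edgeR, without 3X- replicate 2) and that of Gabrg1 in PU.1+ nuclei likewise for 6 (up to 0.127, without PU.1+ replicate 4).

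Between regions, 19 genes were tested in naive NeuN+ nuclei, mPFC against HIP, and 10 were higher and 6 lower (49.6% of all genes were called, 25.1% higher and 24.6% lower). The alpha subunits were divided. Gabra3 was higher in mPFC by 1.35 (SE 0.093), while Gabra2 (-1.28, SE 0.057), Gabra5 (-1.27, SE 0.068) and Gabra4 (-0.27) were lower. Gabrg3 (0.81), Slc32a1 (0.85), Slc6a11 (0.74), Nlgn2 (0.58), Gabrd (0.49), Gabbr2 (0.38), Gabbr1 (0.18), Slc12a2 (0.18) and Abat (0.17) were also higher in mPFC, and Gabrb1 (-0.41), Gad1 (-0.29) and Gphn (-0.27) were lower. The highest adjusted p were 0.0321 for Abat and 0.03 for Slc12a2 (edgeR), and both calls were lost without mPFC naive replicate 1 (log2 fold change 0.17 for Abat and 0.10 for Slc12a2) and without the FPKM filter (adjusted p = 0.0909 for Abat and 0.0805 for Slc12a2, edgeR), and that of Slc12a2 also with a replicate block (0.16, adjusted p = 0.0584, edgeR). Not called were Gabrb2 (0.01), Gad2 (0.20) and Slc12a5 (0.11).

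The largest count of calls after CFC was in mPFC neurons. After 10 minutes, 19 genes were tested in mPFC NeuN+ nuclei, and 2 rose and 7 fell, where 14.4% of all genes tested were called (8.19% higher and 6.26% lower). After 30 minutes 4 rose and 5 fell of 19, where 24.7% of all genes were called (13.1% higher and 11.6% lower). The 2 times were set against the same naive libraries. At both times, the GABA-B subunits Gabbr1 and Gabbr2 rose, and the GABA-A subunits Gabra3, Gabra4, Gabra5 and Gabrb2 and the transporter Slc6a11 fell. Each of these had CPM that did not overlap between CFC and naive libraries, as did 29.6% of all genes tested at 10 minutes and 38.6% at 30 minutes.

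Gabbr2 had 1102, 1215 and 1109 CPM in naive libraries, 1357, 1354 and 1389 CPM after 10 minutes and 1401, 1343 and 1287 CPM after 30 minutes. Every CFC library was above every naive one. The log2 fold change was 0.26 (SE 0.044, adjusted p = 0.000231, edgeR) after 10 minutes and 0.25 (SE 0.044, adjusted p = 0.000135, edgeR) after 30 minutes. Gabbr1 had 146, 148 and 153 CPM in naive libraries, 183, 165 and 173 CPM after 10 minutes and 184, 185 and 176 CPM after 30 minutes. The log2 fold change was 0.22 (SE 0.051, adjusted p = 0.00428, edgeR) after 10 minutes and 0.31 (SE 0.051, adjusted p = 8.42e-05, edgeR) after 30 minutes. The 2 partner subunits of the same receptor thus both had higher nuclear RNA in all 6 CFC libraries than in any of the 3 naive ones.

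Of the alpha subunits, Gabra3 had the largest fall. It had 114, 109 and 106 CPM in naive libraries, 86.0, 95.6 and 91.9 CPM after 10 minutes and 82.3, 87.5 and 85.4 CPM after 30 minutes. Its log2 fold change was -0.26 (SE 0.054, adjusted p = 0.00137, edgeR) after 10 minutes and -0.34 (SE 0.054, adjusted p = 4.09e-05, edgeR) after 30 minutes. Gabra4 had 203, 178 and 188 CPM in naive libraries, 165, 164 and 169 CPM after 10 minutes and 157, 154 and 175 CPM after 30 minutes. The 30-minute library of 175 CPM came close to the lowest naive library. The log2 fold changes of Gabra4 were -0.19 (adjusted p = 0.0231, edgeR) and -0.21 (adjusted p = 0.00781, edgeR) at the 2 times. Gabra2 had 232, 217 and 203 CPM in naive libraries, 180, 188 and 202 CPM after 10 minutes and 197, 198 and 214 CPM after 30 minutes, and was called after 10 minutes only among the 2 times (-0.19, adjusted p = 0.0237, edgeR). Gabra5 had 78.0, 75.3 and 75.7 CPM in naive libraries, 65.4, 71.9 and 67.1 CPM after 10 minutes and 69.6, 64.0 and 68.3 CPM after 30 minutes, with a log2 fold change of -0.16 at each time. Its calls were narrow (adjusted p = 0.0489 and 0.0333, edgeR) and were not stable. They were kept under 2 of 10 alternatives at 10 minutes and 3 of 10 at 30 minutes, and were lost at both times with DESeq2 (adjusted p = 0.0898 and 0.07) and without the FPKM filter (adjusted p = 0.163 and 0.126, edgeR), and with a replicate block at 10 minutes (adjusted p = 0.0581, edgeR).

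Gabrb2, the beta subunit of most neuronal GABA-A receptors, had 473, 424 and 439 CPM in naive libraries, 377, 398 and 403 CPM after 10 minutes and 377, 373 and 396 CPM after 30 minutes. The log2 fold changes were -0.18 (SE 0.048, adjusted p = 0.0115, edgeR) and -0.20 (SE 0.048, adjusted p = 0.00308, edgeR). Summed over all 15 GABA-A subunits, mPFC NeuN+ libraries held 3163 to 3349 CPM in naive animals, 2927 to 3045 CPM after 10 minutes and 2965 to 3062 CPM after 30 minutes. The sum of the 2 GABA-B subunits was 1247 to 1363 CPM in naive libraries, 1520 to 1561 CPM after 10 minutes and 1463 to 1584 CPM after 30 minutes. The sums of the 2 receptor classes thus lay on opposite sides of naive in the same CFC libraries, and neither sum was tested.

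**Figure D2:**
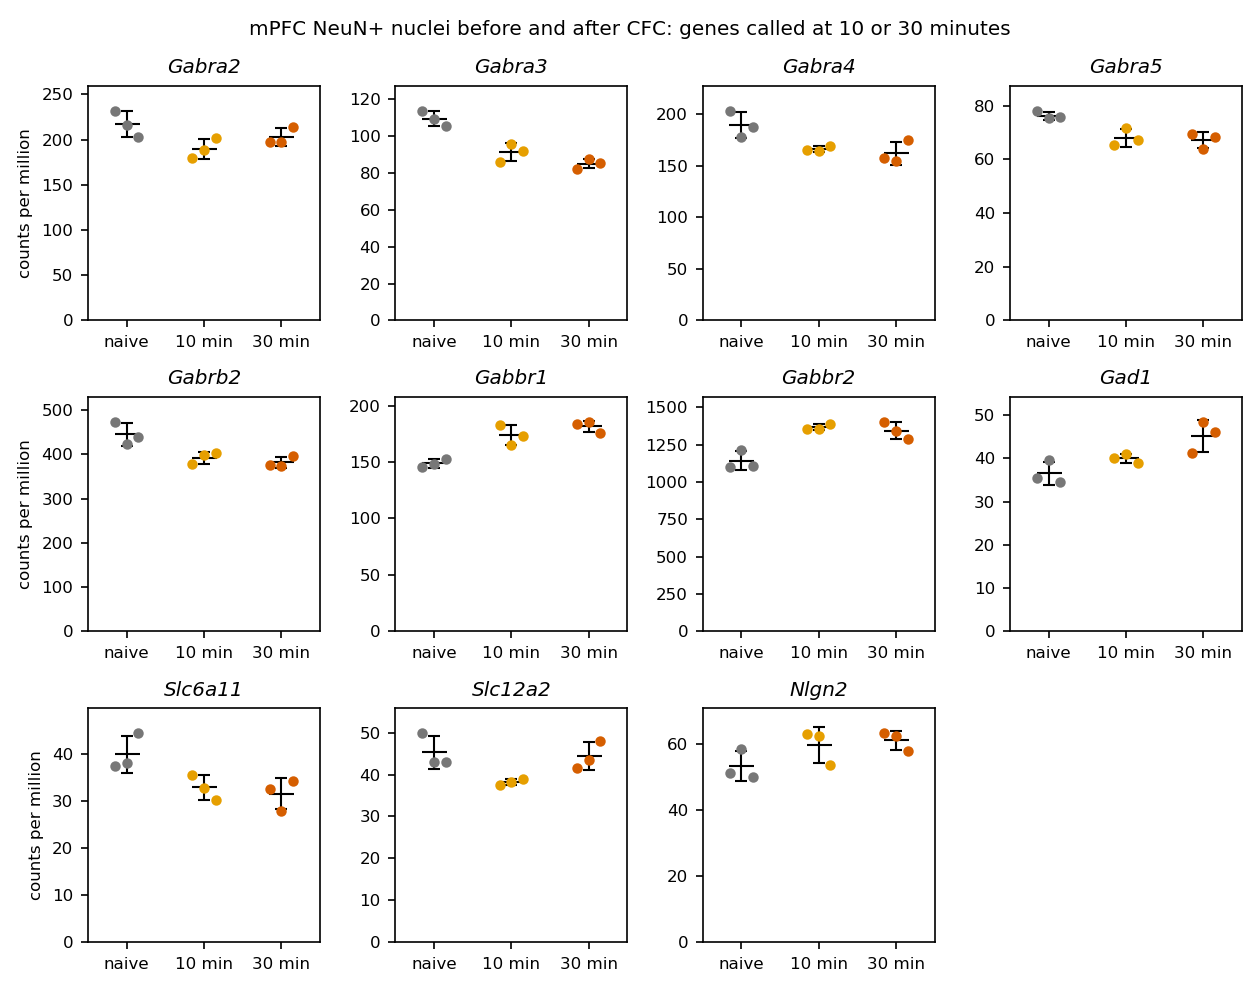
CPM of the 11 genes called after 10 or 30 minutes in mPFC NeuN+ nuclei, in naive, 10-minute and 30-minute libraries (points, 3 per group; bars, mean and SD; axes start at 0). Gabbr1 and Gabbr2 lie above naive at both times, Gabra3, Gabra4, Gabra5, Gabrb2 and Slc6a11 lie below it, and Gad1 is called at 30 minutes only.

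Gad1 was called at 30 minutes and not at 10. It had 35.5, 39.6 and 34.5 CPM in naive mPFC NeuN+ libraries, 40.1, 41.0 and 38.9 CPM after 10 minutes and 41.1, 48.4 and 46.0 CPM after 30 minutes. At 30 minutes the groups did not overlap and the log2 fold change was 0.33 (SE 0.068, adjusted p = 0.000946, edgeR). Gad2 had 33.6, 40.8 and 34.1 CPM in naive libraries, 36.3, 40.0 and 39.5 CPM after 10 minutes and 34.6, 39.5 and 39.6 CPM after 30 minutes, and was not called at either time. Slc6a11 had 37.4, 38.1 and 44.5 CPM in naive libraries, 35.6, 32.9 and 30.3 CPM after 10 minutes and 32.7, 28.0 and 34.2 CPM after 30 minutes. Its log2 fold changes were -0.28 (adjusted p = 0.0194, edgeR) and -0.33 (adjusted p = 0.00432, edgeR). Slc12a2 had 49.9, 43.0 and 43.1 CPM in naive libraries, 37.5, 38.2 and 39.0 CPM after 10 minutes and 41.5, 43.5 and 47.99 CPM after 30 minutes, and fell only at the first time (-0.24, adjusted p = 0.0198, edgeR). Nlgn2 rose at 30 minutes by 0.22 (adjusted p = 0.0183, edgeR), with 63.2, 62.2 and 57.8 CPM after CFC against 51.2, 58.3 and 49.9 CPM in naive libraries, which overlapped. The genes not called ranged from -0.16 to 0.16 after 10 minutes and from -0.25 to 0.12 after 30 minutes.

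Other cell type lists moved with these results in mPFC NeuN+ libraries. The oligodendrocyte list took 65.8 to 88.3 CPM in naive libraries, 122 to 157 CPM after 10 minutes and 120 to 185 CPM after 30 minutes. Without its leading gene, Mbp, it took 9.30 to 11.7 CPM in naive libraries, 10.6 to 14.5 CPM after 10 minutes and 8.74 to 16.0 CPM after 30 minutes. The list of striatal projection neurons took 1423 to 1588 CPM in naive libraries, 2136 to 2891 CPM after 10 minutes and 2514 to 2744 CPM after 30 minutes, and without Pde10a it took 54.6 to 61.2 CPM in naive libraries, 56.4 to 68.8 CPM after 10 minutes and 69.1 to 77.8 CPM after 30 minutes. The list of astrocytes, in which Slc6a11 is highest, took 611 to 662 CPM in naive libraries, 671 to 750 CPM after 10 minutes and 710 to 718 CPM after 30 minutes. Inhibitory neuron markers other than the genes studied took 2064 to 2235 CPM in naive libraries, 1910 to 2036 CPM after 10 minutes and 1995 to 2161 CPM after 30 minutes. The part of these differences in the results was not tested. Of the 9 calls at each time, those of Gabra3, Gabbr1 and Gabbr2 at both times and of Gabrb2 and Gad1 at 30 minutes held in every alternative and without any 1 library. The others were lost without 1 or more libraries. The count of calls at 10 minutes was 4 without naive replicate 1, 4 without CFC10 replicate 1 and 5 without CFC10 replicate 2, and at 30 minutes it was 5 without CFC30 replicate 2.

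In HIP neurons 3 calls were made over both times. After 10 minutes, 17 genes were tested in HIP NeuN+ nuclei, and 0 rose and 1 fell, where 4.86% of all genes tested were called (2.72% higher and 2.14% lower). After 30 minutes 2 rose and 0 fell of 17, where 8.56% of all genes were called (4.67% higher and 3.89% lower). Gad1 had 40.6, 47.5, 39.5 and 47.6 CPM in naive libraries, 51.4, 45.6, 48.3 and 53.0 CPM after 10 minutes and 57.1, 53.5, 60.8 and 49.7 CPM after 30 minutes. At 30 minutes every library was above every naive one, and the log2 fold change was 0.32 (SE 0.065, adjusted p = 0.00389, edgeR), a call that held in every alternative. Groups did not overlap for 14.1% of all genes tested at that time and for 13% at 10 minutes. Inhibitory neuron markers other than the genes studied took 2448 to 2663 CPM in the CFC30 libraries, against 2312 to 2665 CPM in naive libraries, but that list is not specific to neurons, since it took 3740 to 4195 CPM in 3X- saline libraries. Gad2 was not called at 30 minutes (0.21, adjusted p = 0.117, edgeR).

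Slc12a2 in HIP NeuN+ nuclei had 41.2, 42.4, 35.1 and 37.8 CPM in naive libraries, 44.9, 45.6, 44.3 and 42.2 CPM after 10 minutes and 49.0, 41.6, 47.6 and 43.3 CPM after 30 minutes. It was called at 30 minutes (0.20, adjusted p = 0.0469, edgeR) although the groups overlapped. Gabra5 had 196, 174, 179 and 171 CPM in naive libraries, 141, 155, 157 and 157 CPM after 10 minutes and 153, 161, 150 and 183 CPM after 30 minutes, and fell after 10 minutes (-0.27, SE 0.066, adjusted p = 0.0211, edgeR). The Gabra5 call was lost without naive replicate 1 (-0.22), naive replicate 3 (-0.28) or CFC10 replicate 1 (-0.23), and the Slc12a2 call was lost without naive replicate 3 (0.16) or 4 (0.18) or CFC30 replicate 1 (0.16) or 3 (0.19). The GABA-B subunits were not called in HIP neurons. Gabbr2 averaged 957 CPM at 30 minutes against 859 CPM in naive libraries (0.14, adjusted p = 0.0649, edgeR), and Gabbr1 averaged 141 against 129 CPM (0.11, adjusted p = 0.099, edgeR). The genes not called ranged from -0.10 to 0.21 at 10 minutes and from -0.17 to 0.21 at 30 minutes.

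Whether the neuronal response differed between regions was tested as a contrast of the 2 effects, mPFC minus HIP, in 1 fit of 19 tested genes. At 10 minutes the effect on Slc12a2 was lower in mPFC than in HIP by -0.40 (SE 0.097, adjusted p = 0.0433, edgeR), 1 of 19 where 0.705% of all genes were called (0.465% higher and 0.24% lower). That call was lost without 1 of 9 of the 14 libraries, among them mPFC naive replicate 1 (-0.32, adjusted p = 0.221, edgeR). At 30 minutes 0 of 19 were called, where 2.3% of all genes were (1.76% higher and 0.545% lower), with 2 at an unadjusted p under 0.05 and 0 with DESeq2. The difference for Gabbr1 at 30 minutes was 0.20 (adjusted p = 0.126, edgeR), so a response of Gabbr1 particular to mPFC neurons was not shown.

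Non-neuronal nuclei of the HIP gave no call in edgeR. After 10 minutes 0 of 16 genes tested were called in HIP NeuN- nuclei, where 0.345% of all genes were (0.122% higher and 0.223% lower), with 3 at an unadjusted p under 0.05 and 1 with DESeq2. After 30 minutes 0 of 16 were called, where 2.38% of all genes were (1.2% higher and 1.18% lower), with 1 at an unadjusted p under 0.05 and 0 with DESeq2. The log2 fold changes ranged from -0.29 to 0.11 and from -0.32 to 0.17. The smallest adjusted p was that of Gabrg3 at both times (0.123 and 0.143, edgeR), whose mean was 180 CPM in naive libraries, 155 CPM after 10 minutes and 157 CPM after 30 minutes. Its groups did not overlap at either time, as was so for 16.3% of all genes tested at each.

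In mPFC NeuN- nuclei 0 of 18 genes tested were called at 10 minutes, where 1.71% of all genes were (0.74% higher and 0.969% lower), with 6 at an unadjusted p under 0.05 and 2 with DESeq2. At 30 minutes 1 rose and 2 fell of 18, where 5.85% of all genes were called (2.68% higher and 3.18% lower). The 3 were Slc6a11, Gabrg1 and Gabrb1, each of which had its highest level in GFAP+ nuclei among the saline populations. Slc6a11 had 332, 313 and 299 CPM in naive libraries, 270, 251 and 265 CPM after 10 minutes and 220, 252 and 240 CPM after 30 minutes. No CFC library reached a naive one at either time, with no overlap for 21.8% of all genes tested at 10 minutes and 24.8% at 30 minutes, and the log2 fold change was -0.26 (adjusted p = 0.057, edgeR) after 10 minutes and -0.38 (SE 0.064, adjusted p = 0.00243, edgeR) after 30 minutes.

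Gabrg1 in mPFC NeuN- nuclei had 56.7, 59.4 and 58.7 CPM in naive libraries, 47.7, 45.7 and 47.0 CPM after 10 minutes and 42.6, 38.5 and 52.4 CPM after 30 minutes. It fell at 30 minutes by -0.36 on the log2 scale (SE 0.095, adjusted p = 0.0378, edgeR). Gabrb1 had 1278, 1211 and 1192 CPM in naive libraries, 1372, 1282 and 1315 CPM after 10 minutes and 1494, 1321 and 1543 CPM after 30 minutes, and rose at 30 minutes by 0.27 (SE 0.066, adjusted p = 0.0254, edgeR). At 30 minutes neither gene overlapped between groups, as was so for 24.8% of all genes tested. The 2 subunits, 1 a fall and 1 a rise, belong to the same gene cluster of chromosome 5. Astrocyte markers took 6695 to 7497 CPM in these CFC30 libraries against 6697 to 7155 CPM in naive libraries, microglial markers took 1127 to 1343 CPM in CFC30 against 1496 to 1533 CPM in naive libraries, and oligodendrocyte markers 5563 to 6066 CPM in CFC30 against 4995 to 5399 CPM in naive libraries. The striatal list took 798 to 957 CPM in CFC30 against 183 to 194 CPM in naive libraries, and without its leading gene, Pde10a, 25.8 to 32.3 CPM in CFC30 against 28.1 to 36.9 CPM in naive libraries. The part of these sums in the results was not tested. The genes not called ranged from -0.48 to 0.46 at 10 minutes and from -0.33 to 0.40 at 30 minutes. Without naive replicate 1, 2 or 3 or CFC30 replicate 1, 1 call was left, and of the 3 only that of Slc6a11 held without any 1 library.

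**Figure D3:**
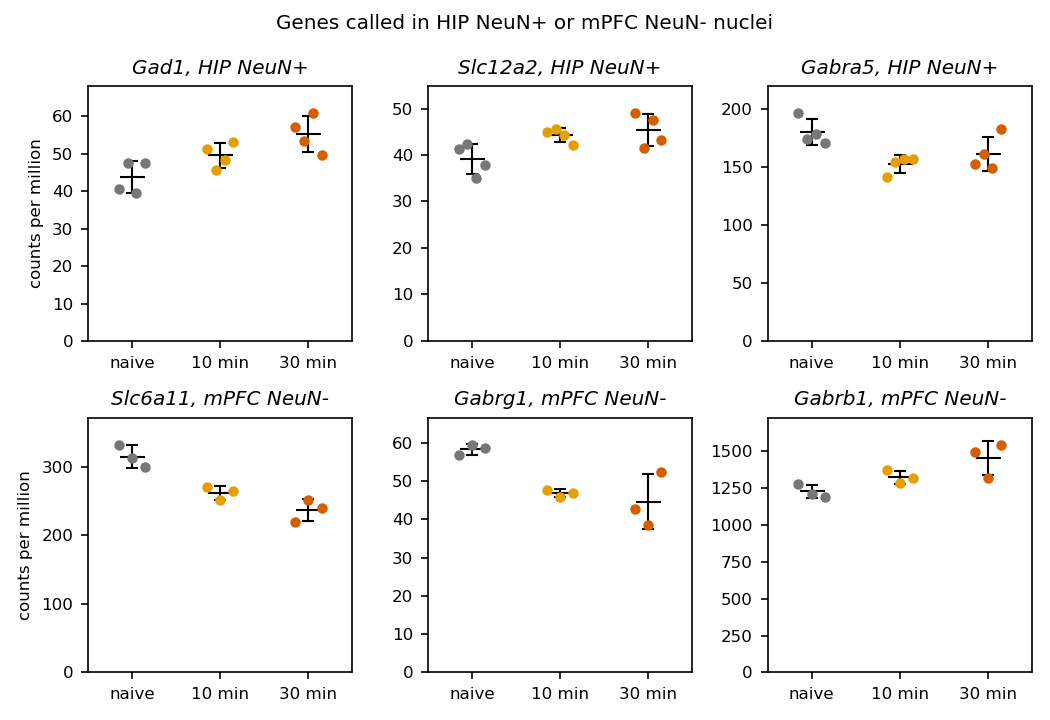
CPM in naive, 10-minute and 30-minute libraries of the genes called in HIP NeuN+ nuclei (upper row, 4 points per group) and mPFC NeuN- nuclei (lower row, 3 points per group); bars are mean and SD and axes start at 0. Gad1 rises in HIP NeuN+ nuclei to 49.7 to 60.8 CPM at 30 minutes, and Slc6a11 falls in mPFC NeuN- nuclei to 220 to 252 CPM.

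The 30-minute effects of the 2 fractions were also compared within each region, NeuN- minus NeuN+. In mPFC the effect on Gabrb1 was higher in NeuN- nuclei by 0.34 (SE 0.085, adjusted p = 0.0214, edgeR), 1 of 22 genes tested where 4.18% of all genes were called (1.61% higher and 2.57% lower). It was lost without 1 of 4 of the 12 libraries: NeuN- naive replicate 2 (0.33, adjusted p = 0.056), NeuN- CFC30 replicate 3 (0.29, adjusted p = 0.0629), NeuN+ naive replicate 1 (0.32, adjusted p = 0.0663) or NeuN+ CFC30 replicate 2 (0.34, adjusted p = 0.0526, all edgeR). For Gabbr1 the difference was -0.36 (adjusted p = 0.0631, edgeR), which was not called. In HIP 0 of 20 were called, where 0.293% of all genes were (0.137% higher and 0.156% lower), with 2 at an unadjusted p under 0.05 and 1 with DESeq2. The largest of these was Gad1 at -0.51 (adjusted p = 0.0974, edgeR).

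After corticosterone, Slc12a2 was the only one of the genes called in any of the 4 populations, and it moved in opposite directions in 2 of them. In 3X- nuclei it had 887, 847, 855 and 859 CPM after corticosterone, against 687, 691, 691 and 669 CPM after saline. Every treated library was above every saline library, with no overlap for 13.3% of all genes tested, and the log2 fold change was 0.37 (SE 0.066, adjusted p = 0.000113, edgeR). It was 1 of 16 genes tested, where 7.48% of all genes were called (5% higher and 2.47% lower). In PU.1+ nuclei Slc12a2 had 139, 111, 160 and 152 CPM after corticosterone, against 193, 203, 174 and 186 CPM after saline. Here every treated library was below every saline library, with no overlap for 14.4% of all genes tested, and the log2 fold change was -0.39 (SE 0.090, adjusted p = 0.0111, edgeR), 1 of 13 genes tested where 7.81% of all genes were called (4.42% higher and 3.39% lower).

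The difference between the 2 effects on Slc12a2, 3X- minus PU.1+, was 0.76 (SE 0.17, adjusted p = 0.00356, edgeR), 1 of 20 genes tested where 3.97% of all genes were called (2.27% higher and 1.7% lower). This contrast was added after the opposite signs had been seen. The rise in 3X- nuclei, the fall in PU.1+ nuclei and their difference were each called in every alternative and without any 1 library. Oligodendrocyte markers took 10760 to 12030 CPM in 3X- corticosterone libraries against 10080 to 10630 CPM in 3X- saline libraries, and 320 to 374 CPM in PU.1+ corticosterone libraries against 264 to 401 CPM in PU.1+ saline libraries. Astrocyte markers took 958 to 1222 CPM in PU.1+ corticosterone libraries against 665 to 907 CPM in PU.1+ saline libraries, and the part of these sums was not tested.

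In GFAP+ nuclei Slc12a2 had 162, 83.8, 80.0 and 84.2 CPM after corticosterone, against 112, 81.9, 81.2 and 80.6 CPM after saline. Replicate 1 of each group stood above the rest, and the same libraries had the highest sums of oligodendrocyte markers in their groups, at 1580 CPM after corticosterone (the others 702 to 820 CPM) and 1254 CPM after saline (the others 757 to 878 CPM). Slc12a2 was not called there (0.25, adjusted p = 0.734, edgeR), and 0 of 18 genes were called in GFAP+ nuclei, where 2.93% of all genes were (2.03% higher and 0.895% lower), with 2 at an unadjusted p under 0.05 and 0 with DESeq2. The groups did not overlap for Gabrg3 and Gabbr1, 2 of 18, and for 9.7% of all genes. Leaving out replicate 1 of both groups also gave 0 calls. In NeuN+ nuclei 0 of 18 were called, where 2.06% of all genes were (1.26% higher and 0.798% lower), with 4 at an unadjusted p under 0.05 and 0 with DESeq2. The groups did not overlap for Gabrb1 and Gabrd, 2 of 18, and for 6.22% of all genes. Slc12a2 averaged 41.6 ± 0.85 CPM after corticosterone and 39.9 ± 1.9 CPM after saline in NeuN+ nuclei (SD, n = 4 each). The log2 fold changes of the genes not called ranged from -0.25 to 0.20 in NeuN+, from -0.16 to 0.38 in GFAP+, from -0.01 to 0.51 in PU.1+ and from -0.03 to 0.52 in 3X- nuclei, the highest in the last 3 being that of the thinly counted Slc32a1.

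**Figure D4:**
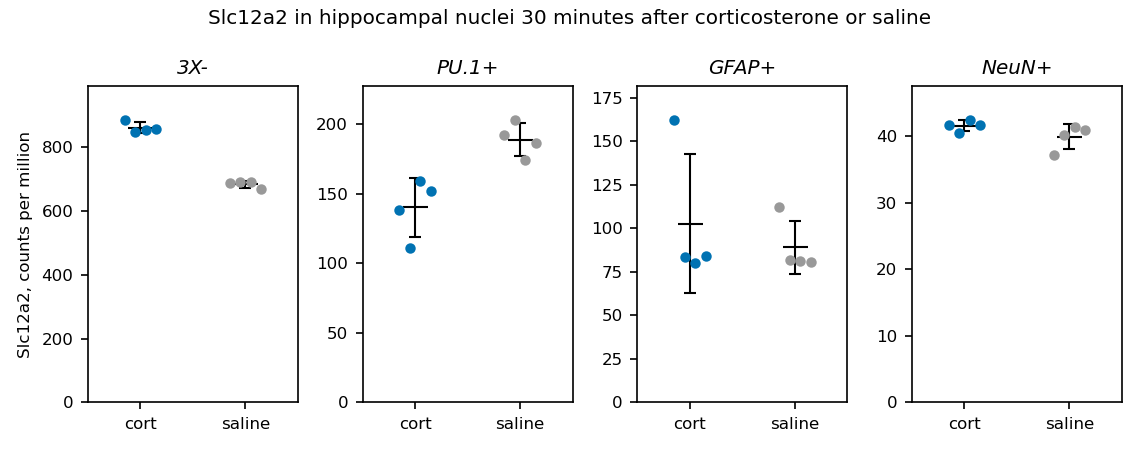
CPM of Slc12a2 in hippocampal nuclei 30 minutes after corticosterone (left in each panel) or saline (right), by sorted population (points, 4 per group; bars, mean and SD; axes start at 0). The groups do not overlap in 3X- nuclei (847 to 887 against 669 to 691 CPM) or in PU.1+ nuclei (111 to 160 against 174 to 203 CPM), where the direction is the opposite.

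The wider pathways were summarised by lists of genes around the GABA system. In mPFC NeuN+ nuclei, partners of GABA-A receptor trafficking and the inhibitory synapse had 5 higher and 0 lower calls of 21 tested at 10 minutes, where 8.19% of all genes tested were higher and 6.26% lower (median log2 fold change 0.12, against 0.01 over all genes tested). At 30 minutes they had 9 higher and 1 lower of 21, where 13.1% of all genes were higher and 11.6% lower (median 0.13, against 0.00 over all genes). Against these same shares and medians of all genes, GABA-B auxiliary subunits and effectors had 2 higher and 1 lower of 13 at 10 minutes (median 0.06) and 3 higher and 3 lower of 13 at 30 minutes (median -0.03). Genes of glutamine and GABA metabolism had 2 higher and 1 lower of 10 at 10 minutes (median 0.11) and 3 higher and 1 lower of 10 at 30 minutes (median 0.13). Regulators of chloride homeostasis had 0 of 9 called at 10 minutes (median -0.03) and 1 higher and 1 lower of 9 at 30 minutes (median 0.03). With so few genes a list, counts of 1 to 3 cannot be set apart from the share of all genes. The higher counts of the trafficking list, 5 and 9 of 21, were not tested as a set either. The lists were chosen with earlier results of these data known, so none of these counts is a result about a list. In HIP NeuN+ nuclei at 30 minutes, where 4.67% of all genes were higher and 3.89% lower, the trafficking list had 2 higher and 0 lower of 22 (median 0.04) and the GABA-B list 1 higher and 1 lower of 13 (median -0.03). The metabolism list had 0 higher and 1 lower of 10 (median -0.05) and the chloride list 0 higher and 1 lower of 11 (median 0.02). After corticosterone, 0 genes of the 4 lists were called in NeuN+ nuclei, where 2.06% of all genes were, and in 3X- nuclei the chloride list had 1 higher and 1 lower of 10 (median -0.10), where 5% of all genes were higher and 2.47% lower.

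**Figure D5:**
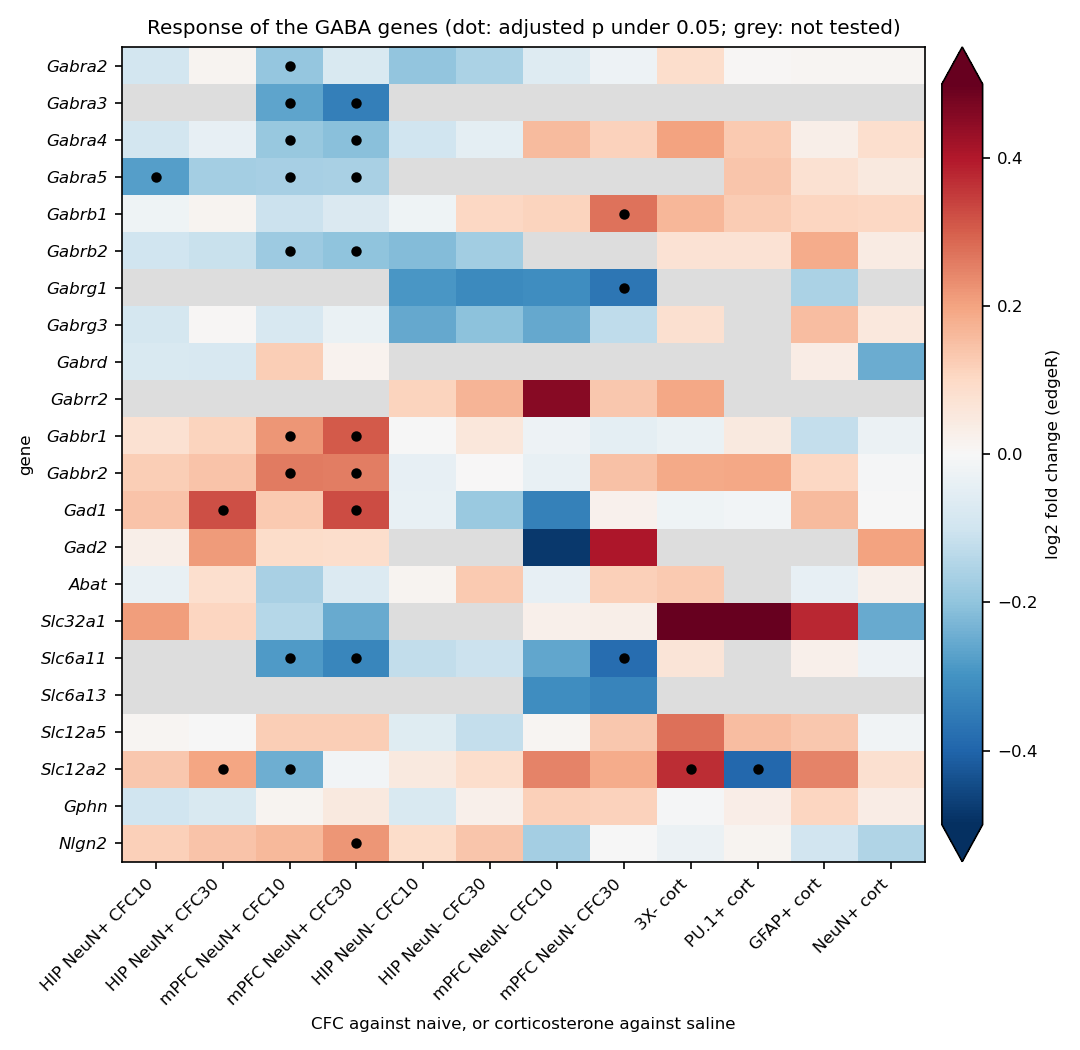
Log2 fold change (edgeR) of each gene tested in at least 1 comparison (rows) for CFC against naive and corticosterone against saline (columns); red is higher and blue lower after CFC or corticosterone, colours are capped at 0.5, dots mark an adjusted p under 0.05 and grey cells were not tested. The mPFC NeuN+ columns hold 9 dots each, and Slc12a2 has dots of opposite colour in 3X- (0.37) and PU.1+ (-0.39) nuclei.

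None of the genes lay under a γH2AX peak of the lists used here, which are shorter than those the study describes, and peaks outside them were not analysed here. Of the 282 peaks listed for HIP and the 260 listed for mPFC, each with naive and CFC tissue together, 0 overlapped the body of any of the 27 genes by 1 bp or more, and 0 of the 27 were named in the lists. Among genes above 0.2 FPKM, 3.4% of 16048 in HIP and 3.24% of 16559 in mPFC were overlapped by 1 bp or more, and 2.54% and 2.47% over 50% of the body or more. The nearest peak lay 79994 bp (lowest), 3702313 bp (median) and 85536776 bp (highest) from the genes in HIP, and 89294, 6573240 and 94930729 bp in mPFC. The lists give regions and no replicate values, so no test was made.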

How the data were processed

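Nuclear RNA-seq of sorted nuclei and γH2AX ChIP-Seq were used, and groups were taken from the sample labels. Per the study's methods and the submitters' processing notes, read ends were trimmed by the authors (Trimmomatic), HISAT2 was used for alignment to GRCm38, Picard for removing duplicates and featureCounts for assigning reads to the full span of each gene, introns included, and the deposited values are raw counts per gene. γH2AX reads were aligned with Bowtie2, replicates were merged, and broad peaks were called with MACS2 and intersected with bedtools; the deposited lists give positions only. Tool versions are not given in the sources used here. Gene IDs without a gene model (67 per table) held 0.0227 to 0.0266% of counts and were left out.

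Counts were fitted with edgeR 4.0.16 (R 4.3.3, limma 3.58.1; TMM scaling, quasi-likelihood F test) over genes above a mean of 0.2 FPKM over the gene body in at least 1 group of the fit, and p-values were adjusted over all genes tested. Naive, CFC10 and CFC30 libraries of 1 region and fraction were fitted together, each corticosterone population alone, the saline populations together, and differences between effects as contrasts in 1 fit. The SE is the log2 fold change divided by the square root of F. The script was tested on simulated data. Alternatives were DESeq2 1.42.0, its size factors in edgeR, no FPKM filter, the replicate number as a block and leaving out each library. The contrast of 3X- and PU.1+ effects and the fit of GFAP+ nuclei without replicate 1 of both groups were added after the data had been seen. Every gene of the set was to be named, and every called one given with its fold change. The genes and lists were chosen with earlier results of these data known. Intervals and floors cover counting error only.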

Additional observations from a re-analysis of the deposited data

Results flagged for a closer look

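Of 111 groups of 4 libraries examined for a library far from the other 3, 6 held one (5.41%, where chance gives about 1 in 20). Gabra5 in HIP NeuN+ CFC10 replicate 1 had 141.4 CPM, below the other 3 at 154.7 to 157.2 CPM. Gabrg1 in NeuN+ saline replicate 1 had 2.414 CPM, against 3.341 to 3.409 CPM in the others. Gad2 in PU.1+ saline replicate 3 had 12.55 CPM, above the others at 6.843 to 7.736 CPM. Slc6a11 in 3X- saline replicate 2 had 44.95 CPM, above the others at 30.86 to 32.61 CPM. Slc12a2 stood apart in 2 groups, with 668.6 CPM in 3X- saline replicate 4 (the others 687.3 to 690.9 CPM) and 112.1 CPM in GFAP+ saline replicate 1 (the others 80.56 to 81.9 CPM). The last library also had the highest sum of oligodendrocyte markers of its group.

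In 3 cases effects under the same contrast differed between populations or regions by a test of the difference itself (edgeR). The CFC30 effect on Gabrb1 was higher in mPFC NeuN- than in mPFC NeuN+ nuclei by 0.3359 (log2), a call lost without 1 of 4 of the 12 libraries. The CFC10 effect on Slc12a2 in NeuN+ nuclei, mPFC minus HIP, was -0.3979, a call lost without 1 of 9 of the 14 libraries. The corticosterone effect on Slc12a2, 3X- minus PU.1+, was 0.7595. That contrast was chosen after the opposite signs had been seen in the same libraries, so its p-value is no independent support.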

How the results depend on the processing

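No call of the 27 genes reversed under any alternative that was run. Of 24 calls after CFC, 10 were kept under every alternative, as were 2 of 2 after corticosterone, 1 of 3 between effects and 109 of 113 between populations or regions. Counts of calls moved by 1.5 times or more as follows. Without the FPKM filter, HIP NeuN+ gave 3 calls at 10 minutes (1 with the filter) and 4 at 30 minutes (2), HIP NeuN- gave 1 at each time (0), mPFC NeuN- gave 5 at 10 minutes (0), and the difference of fractions gave 1 in HIP (0) and 2 in mPFC (1). DESeq2 gave 1 call in HIP NeuN- and 2 in mPFC NeuN- at 10 minutes (0 in edgeR), and 1 in HIP and 2 in mPFC for the difference of fractions, and 3 in HIP NeuN+ at 30 minutes (2 in edgeR). Every same-numbered pair of samples correlated over 0.1 in 0 of the 18 comparisons (r from -0.23 to 0.35). Every sample correlated best with its own number in 2 of 18, mPFC NeuN- against NeuN+ and GFAP+ against NeuN+. There same-numbered pairs had r of 0.063 to 0.125 and 0.031 to 0.066, against at most 0.024 and 0.012 for other numbers. In 3X- against NeuN+ this held for 7 of 8 samples. The paper describes gating nuclei in sequence by NeuN, GFAP and PU.1, so sorts of 1 region and treatment can come from the same animals. Numbers were not taken as pairs in the main fits, so animals shared between sorts were not allowed for there. The replicate block used the number alone. In fits of more than 1 treatment or time it joined different animals under 1 number, so it does not model the animal there. With a replicate block, mPFC NeuN- against NeuN+ and GFAP+ against NeuN+ kept 21 and 20 calls. With a replicate block, HIP NeuN- at 30 minutes had 1 call (0 without it) and the mPFC fraction difference 2 (1 without it), while Gabra5 in mPFC NeuN+ at 10 minutes (adjusted p = 0.0581) and Slc12a2 in mPFC against HIP (adjusted p = 0.0584, both edgeR) lost their calls. Smaller moves were 16 calls to 14 without the filter and to 17 with DESeq2 for mPFC against HIP, 9 to 8 with DESeq2 at both times in mPFC NeuN+ and 20 to 19 with DESeq2 size factors for PU.1+ against NeuN+. Without the filter, counts between populations were 1 to 4 higher.

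Leaving out 1 library gave 0 to 1 calls in HIP NeuN+ at 10 minutes and 1 to 5 at 30 minutes, 4 to 9 and 5 to 8 in mPFC NeuN+, and 0 to 1 and 1 to 2 in mPFC NeuN-. It gave 0 to 1 in NeuN+ and 1 to 2 in 3X- nuclei after corticosterone, 0 to 3 for the mPFC fraction difference and 0 to 1 for the region difference at 10 minutes. The extremes in HIP NeuN+ at 30 minutes were 1 call without naive replicate 3 or 4 or CFC30 replicate 1 or 3, and 5 without CFC30 replicate 4. The fraction difference gave 0 without NeuN- naive replicate 2, NeuN+ naive replicate 1 or NeuN+ CFC30 replicate 2, and 2 to 3 without NeuN- naive replicate 3 or NeuN- CFC30 replicate 1 or 2. The 1 call in mPFC NeuN- at 10 minutes came without naive replicate 3, that in NeuN+ nuclei after corticosterone without saline replicate 3, and the 2 in 3X- nuclei without corticosterone replicate 2. The cause of these shifts was not tested. Thin counts limit what was detectable for genes such as Slc32a1.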
